A study of Mus musculus with 3 samples.

Results

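The small leucine-rich proteoglycan genes are described here in the forming mouse axial skeleton, in 3 frozen sections profiled with Visium, in which an array of barcoded spots captures the RNA of the tissue lying on it. The 10 members were taken by gene symbol, namely Dcn, Bgn, Aspn, Fmod, Lum, Prelp, Kera, Epyc, Ogn and Chad. They are 10 of the 32285 genes in each count matrix, and each had at least 1 UMI (unique molecular identifier, standing for 1 captured RNA molecule) in every section. The sections come from Mus musculus embryos of 3 stages, which are E11.5, E12.5 and E13.5, labelled as bone and as embryonic axial skeleton, with 1 section a stage and no replicate. No treatment or mutation is named in the labels, and the sources used here give neither strain nor sex nor the number of embryos. Stage, embryo and the cut of each section therefore cannot be told apart.

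Small leucine-rich proteoglycans are secreted matrix proteins with a core of leucine-rich repeats that binds collagen. Many carry chains of chondroitin, dermatan or keratan sulfate, and they regulate how collagen fibrils assemble and how wide they grow. Decorin (Dcn), biglycan (Bgn) and asporin (Aspn) form the first class of the family, although asporin lacks a sugar chain of this kind. Fibromodulin (Fmod), lumican (Lum), prolargin (Prelp) and keratocan (Kera) form the second class. Epiphycan (Epyc) and osteoglycin (Ogn) belong to the third class, and chondroadherin (Chad), which chondrocytes bind through an integrin, to the fourth. Tendon, cartilage, bone and dermis are each known to hold their own mixture of these proteins.

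A spot had to hold at least 1000 UMIs, which kept 1561 spots at E11.5, 1014 spots at E12.5 and 1360 spots at E13.5. The median spot held 27048, 24385.5 and 20943.5 UMIs in this order of stages, in which values of several stages are given throughout. Within each section a spot belonged to the Col2a1-high, Tnmd-high, Col1a1-high or Tubb3-high spots when its share of UMIs from that gene lay in the top 10%. Col2a1 encodes the main collagen of cartilage, Tnmd (tenomodulin) is a tendon and ligament marker, Col1a1 encodes the main collagen of fibrous tissue and bone, and Tubb3 is a neuronal tubulin. Spots in several of these classes were left out of the class values, and the rest are called the remaining spots. The Col2a1-high spots numbered 151, 99 and 115 by stage, the Tnmd-high spots 12, 66 and 99, the Col1a1-high spots 148, 70 and 102, the Tubb3-high spots 153, 99 and 117, and the remaining spots 1084, 645 and 872. With a width of 55 µm a spot covers several cells, so fewer cells of a type and less RNA per cell cannot be told apart in any value below.

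The classes were set against markers that did not choose the spots. All 7 cartilage markers passed the test between Col2a1-high and remaining spots, and their summed level was 711, 2607 and 7546 CPM in Col2a1-high spots over the 3 stages, against 131, 261 and 557 CPM in the remaining spots (CPM, UMIs per 1000000 UMIs of the sum). The 5 tendon markers summed to 367 CPM at E12.5 and 944 CPM at E13.5 in Tnmd-high spots, against 177 and 240 CPM in the remaining spots. At E11.5 they summed to 38.1 CPM in the 12 Tnmd-high spots, with Thbs4 at 0, against 39.1 CPM in the remaining spots. Tnmd had a UMI in only 23 spots of that section, so its Tnmd-high spots are called by their rule alone and not as tendon. The libraries share 434 barcodes between E11.5 and E12.5, 704 between E11.5 and E13.5, and 696 between E12.5 and E13.5. Globin transcripts, from blood, were 5.44%, 1.40% and 0.78% of all UMIs in the 3 sections.

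Several members lie beside each other in the genome (build GRCm38.p6, positions from RefSeq). On chromosome 10 the genes Dcn (chr10:97479500-97518163), Lum (chr10:97565501-97572703), Kera (chr10:97606962-97613688) and Epyc (chr10:97644068-97681908) follow each other with no other coding gene between them. On chromosome 1 Prelp (chr1:133910304-133930102) and Fmod (chr1:134037254-134048280) are neighbours across 107151 bases, again with no coding gene between. On chromosome 13 Aspn (chr13:49544443-49567565) and Ogn (chr13:49608015-49624501) have Omd, another gene of the family, between them. Chad (chr11:94565047-94569127) and Bgn (chrX:73483601-73495936) lie alone. Kera and Epyc, 30379 bases apart, parted in the Col2a1-high spots, where Epyc was high and Kera had 0 UMIs, and Chad and Fmod passed the test there, so the promoters of these 4 genes are printed below. Each run of 300 bases holds 250 bases before the start that the table uses and 50 after it, read 5′ to 3′ on the gene's strand from the RefSeq promoter table of GRCm38.p6. The windows are chr10:97606955-97607254 (+) for Kera, chr10:97643818-97644117 (+) for Epyc, chr11:94564797-94565096 (+) for Chad and chr1:134037004-134037303 (+) for Fmod. The start used for Kera, 97607205, lies downstream of the gene start given above, so most of its window is inside the annotated gene.
Kera: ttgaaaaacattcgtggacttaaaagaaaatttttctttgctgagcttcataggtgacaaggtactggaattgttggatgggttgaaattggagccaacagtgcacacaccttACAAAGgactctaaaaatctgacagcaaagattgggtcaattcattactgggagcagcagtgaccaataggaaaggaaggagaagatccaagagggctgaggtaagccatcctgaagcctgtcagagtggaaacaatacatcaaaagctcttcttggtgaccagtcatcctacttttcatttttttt
Epyc: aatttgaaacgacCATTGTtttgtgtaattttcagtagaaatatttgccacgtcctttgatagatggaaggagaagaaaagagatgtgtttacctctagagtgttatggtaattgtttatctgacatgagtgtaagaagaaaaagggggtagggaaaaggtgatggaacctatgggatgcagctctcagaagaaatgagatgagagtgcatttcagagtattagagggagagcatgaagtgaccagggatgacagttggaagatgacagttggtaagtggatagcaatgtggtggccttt
Chad: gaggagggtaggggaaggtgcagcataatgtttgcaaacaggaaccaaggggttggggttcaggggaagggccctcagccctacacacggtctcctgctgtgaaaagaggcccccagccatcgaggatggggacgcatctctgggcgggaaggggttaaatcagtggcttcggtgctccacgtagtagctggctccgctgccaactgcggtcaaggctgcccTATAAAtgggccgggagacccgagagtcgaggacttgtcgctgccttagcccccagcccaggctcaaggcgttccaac
Fmod: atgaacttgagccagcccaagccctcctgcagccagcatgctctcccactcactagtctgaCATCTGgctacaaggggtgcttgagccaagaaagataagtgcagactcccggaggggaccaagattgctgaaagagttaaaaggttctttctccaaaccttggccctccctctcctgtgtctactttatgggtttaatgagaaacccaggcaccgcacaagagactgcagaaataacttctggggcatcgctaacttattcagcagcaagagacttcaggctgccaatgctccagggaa
Capitals mark the matches to 4 motifs searched on both strands, namely TATAAA, the letters of a TATA box, ACAAAG and ACAATG, letters that SOX factors can bind, and CATCTG, an E-box of the kind bound by scleraxis-type factors. Kera holds ACAAAG at -137 from the start, Epyc holds ACAATG at -237 on the minus strand, Chad holds TATAAA at -28 and Fmod holds CATCTG at -189. No match printed here overlaps another. Of all 32851 promoters in that table, 18.7% hold ACAAAG, 12.6% ACAATG, 13.6% TATAAA and 17.2% CATCTG, so each match is a common one. The table has a second start for Epyc, which is not printed, and Dcn and Lum are named only.

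All 10 members had higher levels at E13.5 than at E11.5 when the UMIs of all spots were summed. Each was at least 2-fold higher, against 14.6% of the 15232 genes with at least 50 UMIs over both sections. Kera and Aspn, with 3 and 17 UMIs at E11.5, met that limit only through E13.5, so their place in the count was set by the limit. These ratios compare 1 section with 1 section, and their 95% intervals (exact conditional binomial) cover counting error only. The sections also cover different tissue. In the remaining spots skeletal muscle markers summed to 761.5 CPM at E11.5, 1148 CPM at E12.5 and 4500 CPM at E13.5, neural markers to 637.5, 637 and 95.8 CPM, and heart markers to 1428, 8.43 and 1129 CPM. The part of this coverage in the stage ratios was not tested. Among the first class, Dcn had 33.3 CPM at E11.5, 70.3 CPM at E12.5 and 482 CPM at E13.5, a ratio of E13.5 to E11.5 of 14.5 (95% interval 13.7 to 15.3). Bgn had 85.2, 94.2 and 511 CPM in the same order, so that most of its 5.996-fold difference (5.79 to 6.22) lay between the later 2 stages. Aspn was nearly absent at first, with 17 UMIs (0.383 CPM) at E11.5 and 68 UMIs (2.67 CPM) at E12.5, and reached 4047 UMIs (141 CPM) at E13.5. Its ratio of E13.5 to E11.5, 367 (229 to 631), was the largest of the 10, though it rests on those 17 UMIs.

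Lum, a fibril-binding keratan sulfate proteoglycan, had the smallest ratio of E13.5 to E11.5, with 136 CPM at E11.5, 185 CPM at E12.5 and 375.5 CPM at E13.5, a ratio of 2.75 (2.67 to 2.84). Its class relative Fmod had 14, 42.3 and 243 CPM and a ratio of 17.4 (16 to 18.9). Prelp, which can also bind heparan sulfate, had 3.52, 7.14 and 37.0 CPM. Kera, best known as a keratan sulfate proteoglycan of the cornea, had the fewest UMIs at every stage, with 3, 29 and 208 UMIs. Ogn had 13.5, 28.0 and 336 CPM, so its step between E12.5 and E13.5 was 11.99-fold (11.1 to 12.95). Chad had 1.49, 7.57 and 26.5 CPM.

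Epyc, a dermatan sulfate proteoglycan of epiphyseal cartilage, kept to another timing. It had 1.78 CPM at E11.5, 15.2 CPM at E12.5 and 16.4 CPM at E13.5. Its step was therefore 8.55-fold (6.70 to 11.03) between E11.5 and E12.5 and 1.08-fold (0.939 to 1.23) between E12.5 and E13.5, where the interval spans no difference. Epyc was the only member of 10 that was not at least 2-fold higher at E13.5 than at E12.5, against 10.5% of 14844 genes that were. Kera, with 29 UMIs at E12.5, met the limit of 50 UMIs only through E13.5. From E11.5 to E12.5, 7 of the 9 members with at least 50 UMIs reached 2-fold, against 6.47% of 14890 genes, and Bgn and Lum did not. Aspn, with 17 UMIs at E11.5, met the limit only through E12.5, which set its place among the 7. The step from E11.5 to E12.5 depends on the scaling, since the median gene was 0.19 higher on the log2 scale at E12.5 in CPM and -0.007 with TMM scaling. With TMM 4 members in place of 7 passed. The median gene was at -0.078 for E13.5 over E12.5 and at 0.091 for E13.5 over E11.5, and the counts of 9 and 10 members were the same under TMM.

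The same comparison was made inside classes. A class is the top 10% of its own section, so its border moved between stages and it need not hold the same tissue at each. Before spots of several classes were left out, the lowest Col2a1-high spot held 1320 CPM of Col2a1 at E11.5 and 20005 CPM at E13.5. The lowest Col1a1-high spot held 465.5 and 4659 CPM of Col1a1 at these stages, and the lowest Tubb3-high spot 1721 and 177 CPM of Tubb3. The part of this shift in the ratios was not tested. In Col2a1-high spots 8 of the 9 members with at least 50 UMIs were at least 2-fold higher at E13.5 than at E11.5, against 10.4% of 8941 genes, and Dcn was not. Aspn, Epyc and Prelp had 1, 11 and 29 UMIs there at E11.5 and met the limit only through E13.5, which set their place in the count. Fmod was 72.4-fold higher there (59.0 to 89.6), Bgn 27.6-fold (24.4 to 31.3) and Lum 2.07-fold. In Col1a1-high spots all 7 members with at least 50 UMIs reached 2-fold, against 9.7% of 10349 genes. The same holds there for Aspn and Prelp, with 11 and 12 UMIs at E11.5. Dcn was 20.1-fold higher and Bgn 3.81-fold. Members were higher at E13.5 in the other classes too, for which no share over all genes is given here. In Tnmd-high spots Aspn had 415 UMIs at E13.5 against 0 at E11.5, and Kera 58 against 0. Dcn was 39.0-fold higher there (15.2 to 143.6), from 4 UMIs at E11.5, and Lum 1.30-fold (1.06 to 1.61). In the remaining spots Dcn was 13.6-fold higher (12.7 to 14.6) and Lum 2.97-fold (2.85 to 3.10). In Tubb3-high spots Dcn was 65.4-fold higher (42.0 to 107.7) as well.

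**Figure D1:**
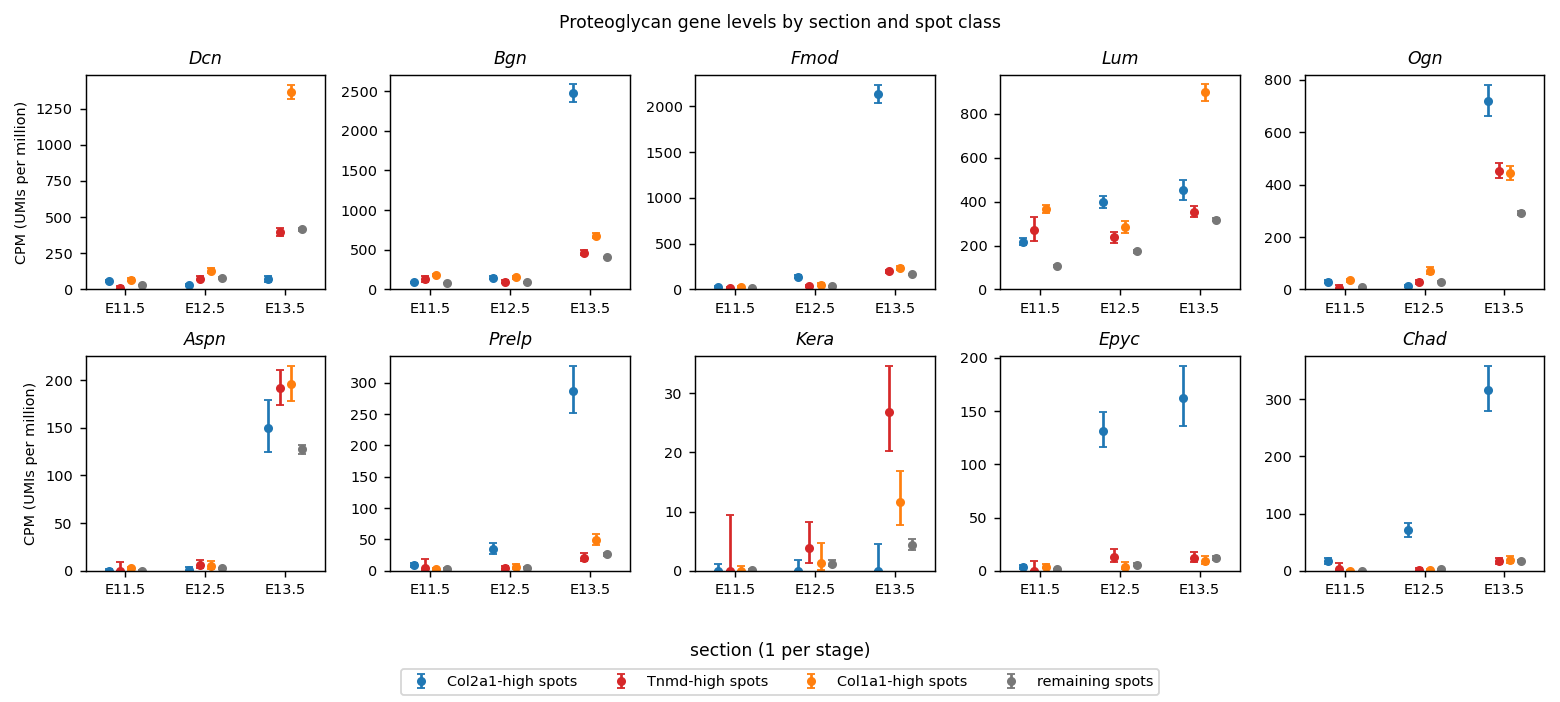
Levels of the 10 genes in CPM (linear axis from 0, with its own scale in each panel) by stage (E11.5, E12.5, E13.5), drawn for the Col2a1-high, Tnmd-high, Col1a1-high and remaining spots in 1 section a stage, with bars for exact Poisson 95% intervals. Among the classes drawn, Chad, Epyc, Fmod, Prelp, Bgn and Ogn lie highest in Col2a1-high spots at E13.5. Dcn and Lum lie highest in Col1a1-high spots and Kera in Tnmd-high spots, while Aspn is close between these 2 classes.

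To describe the members in cartilage-rich spots, Col2a1-high spots were set against the remaining spots. UMIs were summed per section and class, and the 15 sums were fitted with edgeR's quasi-likelihood test with the section as a block and Benjamini-Hochberg adjustment over 12978 genes. Of the 10 members, 4 were higher in Col2a1-high spots at an adjusted p under 0.05 (Chad, Prelp, Epyc and Fmod) and 0 were lower. Over all genes 2.97% were higher and 3.52% lower. The median log2 difference of the members was 1.10, against -0.005 for all genes tested. The 3 sections stand for 3 stages, so the scatter behind these p-values is over sections of different age and not over embryos of 1 stage.

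Chad, a cell-binding protein of cartilage, had the largest difference of the 4. It had 16.8 CPM at E11.5, 71.2 CPM at E12.5 and 317 CPM at E13.5 in Col2a1-high spots, against 0.225, 2.71 and 17.0 CPM in the remaining spots. Every Col2a1-high value thus lay above the remaining value of its section, by 74.9-fold, 26.3-fold and 18.7-fold. The fitted log2 difference was 4.75 ± 0.34 (SE, 3 sections, edgeR adjusted p = 4.0e-05). At E11.5 the Col2a1-high spots held 84.9% of all Chad UMIs in the section while holding 7.50% of all UMIs. At E13.5 their share was 33.8% of the Chad UMIs and 2.83% of all UMIs.

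Epyc was also far higher in Col2a1-high spots, but later. It had 3.31 CPM at E11.5, from 11 UMIs, 132 CPM at E12.5 and 162 CPM at E13.5 in Col2a1-high spots, against 1.51, 5.66 and 12.04 CPM in the remaining spots. The ratio was 2.19, 23.3 and 13.5 by stage, and the fitted log2 difference was 3.57 ± 0.68 (SE, edgeR adjusted p = 0.0128). Within Col2a1-high spots the step between E11.5 and E12.5 was 39.8-fold (21.9 to 80.7), and the step between E12.5 and E13.5 was 1.23-fold (0.991 to 1.525). The other classes differed in this timing. In the remaining spots, which held 243 of the 471 Epyc UMIs at E13.5, the later step was 2.13-fold (1.67 to 2.73). Their early step was larger, at 3.75-fold (2.61 to 5.45). In Tubb3-high spots 22 UMIs at E13.5 stood against 1 UMI at E12.5. The Tnmd-high spots held 0, 21 and 26 Epyc UMIs by stage, with a later step of 0.898-fold (0.486 to 1.68), so they also showed no later rise. For Col1a1-high spots the later step was 2.46-fold, with an interval spanning no difference (0.97 to 7.4).

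Fmod and Prelp, a pair of neighbours on chromosome 1, showed ratios that were larger at each later stage. So did Bgn, which lies alone on chromosome X, at 1.14-fold, 1.61-fold and 6.13-fold. Fmod had 29.5, 136 and 2132 CPM in Col2a1-high spots over the 3 stages, against 11.4, 33.5 and 166 CPM in the remaining spots, or 2.58-fold, 4.06-fold and 12.8-fold. Its fitted log2 difference was 2.48 ± 0.50 (SE, edgeR adjusted p = 0.0159). Prelp had 8.72, 35.3 and 287 CPM in Col2a1-high spots, against 3.28, 4.74 and 26.3 CPM in the remaining spots, or 2.66-fold, 7.46-fold and 10.9-fold. Its fitted log2 difference was 2.65 ± 0.31 (SE, edgeR adjusted p = 0.000941). These growing ratios are counts of 1 section a stage, and the difference between stages was not tested.

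Of these calls, 3 were lost when the E12.5 section was left out, where most counts over all genes in the 5 comparisons moved too. Without E12.5 the edgeR adjusted p was 0.265 for Fmod, 0.140 for Prelp and 0.307 for Epyc, whereas Chad passed at 0.0101. The log2 differences of Fmod, Prelp and Epyc were then 2.73, 2.52 and 2.86. Each of the 4 log2 differences stayed above 0 under all alternatives run.

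Bgn, the closest relative of decorin, did not pass this test. It had 89.6, 148 and 2474 CPM in Col2a1-high spots over the 3 stages, against 78.7, 92.1 and 404 CPM in the remaining spots. The classes were nearly level at E11.5 and 6.13-fold apart at E13.5, and the fitted log2 difference was 1.29 ± 0.46 (SE, edgeR adjusted p = 0.110). Within the Col2a1-high spots Bgn was 16.7-fold higher at E13.5 than at E12.5 (14.8 to 19.0), next to 15.7-fold for Fmod (13.75 to 17.9). In the same test the log2 differences of Lum (0.90, adjusted p = 0.229), Ogn (0.72, adjusted p = 0.450) and Aspn (0.14, adjusted p = 0.914) missed the edgeR threshold as well. Without E13.5 Lum passed, at 1.05 and an adjusted p of 0.0330.

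Dcn turned its direction between sections. It had 57.7 CPM at E11.5, 30.7 CPM at E12.5 and 71.2 CPM at E13.5 in Col2a1-high spots, against 30.5, 78.7 and 415.5 CPM in the remaining spots. The Col2a1-high value was the higher of the pair at E11.5 (1.89-fold) and the lower at E12.5 (0.391-fold) and E13.5 (0.171-fold), so the fitted log2 difference of -0.58 ± 0.66 (SE, edgeR adjusted p = 0.649) averages opposite directions. Dcn in Col2a1-high spots differed little between E11.5 and E13.5 (1.23-fold, 0.904 to 1.66), while over all spots it was 14.5-fold higher at E13.5. Ogn was higher in Col2a1-high spots at E11.5 (3.02-fold) and E13.5 (2.46-fold) and lower at E12.5 (0.437-fold).

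Kera was at 0 UMIs in the Col2a1-high spots of all 3 sections. In E13.5, with 814176 UMIs in these spots, the exact 95% upper limit of a count of 0 was 4.53 CPM (counting error only), and the remaining spots held 4.36 CPM, so that a difference was not detectable at this depth. Its difference from the remaining spots missed the threshold (edgeR adjusted p = 0.0632).

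The depth of the spots moved with this comparison. The median Col2a1-high spot held 5175 UMIs at E13.5, against 22597.5 UMIs in the remaining spots. To set detection side by side at 1 depth, spots were thinned to 2000 UMIs, which left out 10 Col2a1-high spots and 8 remaining spots as shallower at E13.5. Fmod then had a UMI in 93.3% of the Col2a1-high spots, against 25.1% of the remaining spots, and in 22.4% of Tubb3-high spots. The Tubb3-high spots are no clean background at E13.5, since their cartilage markers summed to 651 CPM, against 557 CPM in the remaining spots, and Tubb3 had a UMI in only 30.3% of the spots of that section. Chad was found in 42.9% of Col2a1-high spots, against 5.09% of the remaining spots and 1.72% of Tubb3-high spots. Epyc was found in 37.1% of Col2a1-high spots, against 3.47% and 0.86% of those same groups, and Prelp in 40.0%, against 6.60% and 10.3%. Dcn went the other way, with a UMI in 15.2% of Col2a1-high spots, against 37.5% of the remaining spots. Before thinning, Fmod had a UMI in 98.3% of Col2a1-high spots, against 78.7% of the remaining spots.

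Markers of other tissues also moved with the Col2a1-high spots. All 6 skeletal muscle markers were lower there in edgeR's test, with a summed level of 93.5, 86.0 and 975.2 CPM in Col2a1-high spots over the 3 stages, against 761.5, 1148 and 4500 CPM in the remaining spots. Of 5 notochord markers 1 was higher, and the list summed to 112, 326 and 198 CPM in Col2a1-high spots, with Shh at 0 at E13.5, against 56.8, 44.7 and 113 CPM in the remaining spots. Of the other lists, 3 of 5 endothelial markers (Kdr, Pecam1 and Emcn), 3 of 5 heart markers (Nppa, Myl2 and Myh6), 2 of 5 tendon markers (Egfl6 and Thbs4), the neural gene Sox2 and the epidermal gene Trp63 were lower, and Sp7 of the bone list was higher. The part of these tissues in the results was not tested. Without the 3% of spots with the highest share of the notochord gene T, Chad, Prelp, Epyc and Fmod passed as before. The spots highest in T themselves held 0 CPM of Epyc at E11.5, 81.5 CPM at E12.5 and 169 CPM at E13.5, and 47.9, 143 and 949 CPM of Fmod.

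**Figure D2:**
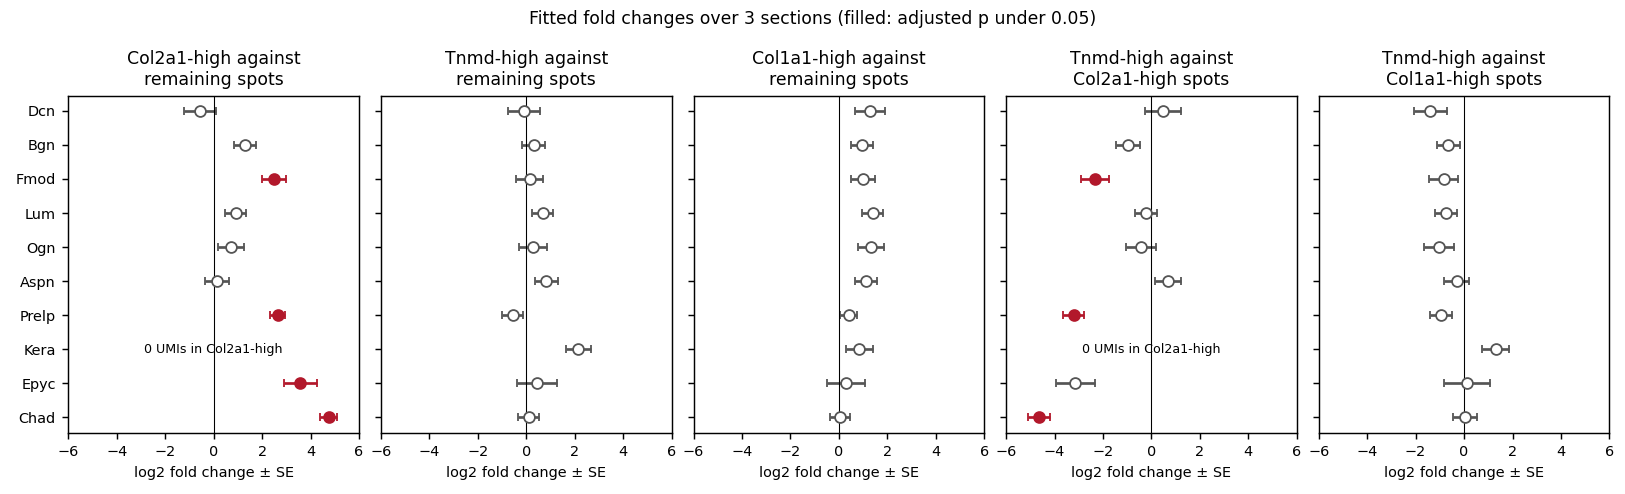
Fitted log2 differences (points) with standard errors (bars) from edgeR's quasi-likelihood test for the 10 genes in 5 comparisons of spot classes, each over 3 sections. Filled red points passed an adjusted p under 0.05: Chad, Prelp, Epyc and Fmod for Col2a1-high against remaining spots, and Chad, Prelp and Fmod for Tnmd-high against Col2a1-high spots. Kera has no point in these comparisons because the Col2a1-high spots held 0 UMIs.

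The E13.5 spots were also ordered by their share of Col2a1, in 10 bins from low to high. The highest bin is the Col2a1-high class before spots of several classes were left out, so it restates the class values, and the other 9 bins show what lies below that border. Fmod had 67.5 CPM in the lowest bin, 362 CPM in the eighth, 1113 CPM in the ninth and 2099 CPM in the highest. Bgn had 292, 842, 1508 and 2466 CPM in those bins. Chad had 4.33, 39.7, 116 and 312 CPM. Prelp had 12.4, 64.1, 151.5 and 286 CPM, and Epyc 4.04, 20.4, 60.5 and 159.5 CPM. The eighth and ninth bins, below the class border, were thus already above the lowest bin in these 5 members.

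The other members peaked elsewhere along the same order. Dcn was highest in the third bin, at 812 CPM, and had 77.1 CPM in the highest bin. Aspn had 52.2 CPM in the lowest bin, 272 CPM in the eighth and 151 CPM in the highest, so it was highest just below the spots richest in Col2a1. Ogn was near its top in both of the highest bins, with 807.5 and 745 CPM. Kera had 11.6 CPM in the eighth bin and 0 UMIs in the highest. Median depth per spot moved along the same order, with 25847.5 UMIs in the lowest bin and 5032.5 UMIs in the highest, and its part in these levels was not tested.

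**Figure D3:**
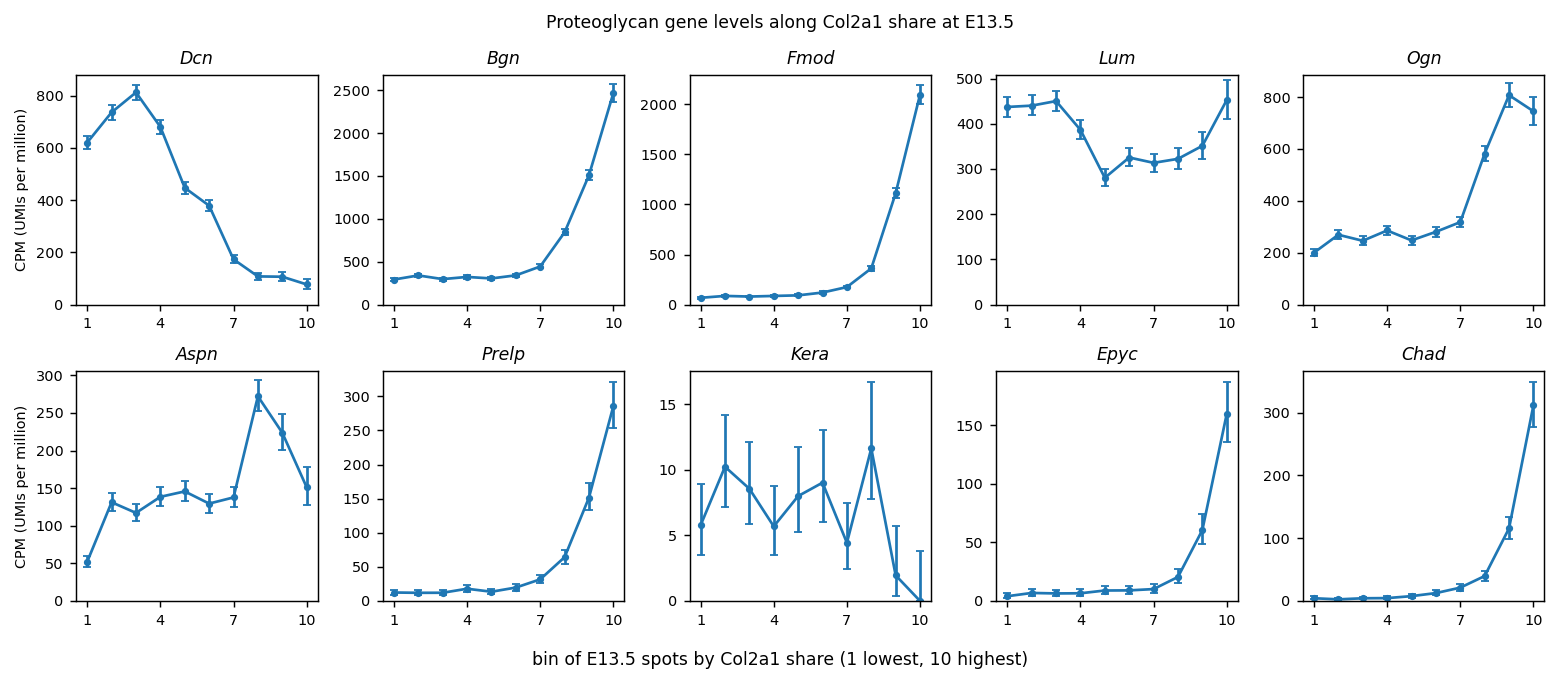
Levels in CPM (linear axis from 0, with its own scale in each panel) of the 10 genes at E13.5 over 10 bins of spots ordered by their share of Col2a1 UMIs, from low (left) to high (right), with exact Poisson 95% intervals as bars. Fmod, Bgn, Chad, Prelp and Epyc are highest in the last bin, Dcn in the third (812 CPM) and Aspn in the eighth (272 CPM).

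Spots rich in Col1a1 were compared with the remaining spots to look at fibrous tissue and early bone. None of the 10 members passed edgeR's test in either direction, and neither did any of the 12978 genes, so the background share called was 0% higher and 0% lower. Before adjustment, 1200 genes and 3 members (Lum, Ogn and Aspn) had p under 0.05, and DESeq2 called 30 genes higher and 15 lower. The members' median log2 difference was 0.97, against -0.005 for all genes. The low count for all genes means that the values below are descriptions.

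Dcn, which binds collagen I fibrils, had 68.1, 130 and 1367 CPM in Col1a1-high spots over the 3 stages, against 30.5, 78.7 and 415.5 CPM in the remaining spots. The Col1a1-high value was above the remaining value in 3 of 3 sections, and the fitted log2 difference was 1.28 (edgeR adjusted p = 0.561). At E13.5 the Col1a1-high spots held 22.9% of all Dcn UMIs while holding 8.08% of all UMIs. Lum had 368, 284 and 898.5 CPM in Col1a1-high spots, against 107, 174 and 318 CPM in the remaining spots. Its fitted log2 difference was 1.40, again with the Col1a1-high value above the remaining value in 3 of 3 sections. Without the E13.5 section Lum (1.35) and Bgn (1.05) passed in Col1a1-high against remaining spots, at edgeR adjusted p-values of 0.0353 and 0.0284. Ogn had 35.2, 71.1 and 445 CPM in Col1a1-high spots, against 9.87, 29.3 and 293 CPM in the remaining spots.

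Aspn at E13.5 had 196 CPM in Col1a1-high spots, against 127 CPM in the remaining spots, and 150 CPM in Col2a1-high spots. It thus differed less between these classes at E13.5 than it did between stages. The 55 spots of several classes, left out of the class values, held more Aspn at E13.5, at 412.5 CPM. Of the bone, dermis and skeletal muscle markers 0 passed the test between Col1a1-high and remaining spots, and their summed levels differed as follows. The 6 bone markers summed to 13.4, 13.5 and 308.5 CPM in Col1a1-high spots, with Ibsp at 0 at E11.5 and Ibsp, Bglap and Dmp1 at 0 at E12.5, against 10.99, 9.42 and 40.4 CPM in the remaining spots. The 5 markers of dermis and loose connective tissue summed to 753, 1313 and 995 CPM in Col1a1-high spots, with Dpt at 0 at E12.5, against 1017, 1540 and 619 CPM in the remaining spots, so this list was lower at the first 2 stages and higher at E13.5. The 6 skeletal muscle markers summed to 443, 631 and 1219 CPM in Col1a1-high spots, against 761.5, 1148 and 4500 CPM in the remaining spots. Their part in the levels of Dcn and Lum was not tested.

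None of the 10 members passed edgeR's test between Tnmd-high spots, chosen for a marker of tendon and ligament, and the remaining spots, and each adjusted p was 1. Of 12978 genes 1 was called in each direction (0.00771% each), Tnmd itself higher and Sftpc lower, the second named here after its value was seen. Besides, 372 genes and 1 member had p under 0.05 before adjustment, and DESeq2 likewise called 1 gene higher and 1 lower. That member was Kera, with a fitted log2 difference of 2.15 ± 0.52 (SE), and it met the count filter only with its Tnmd-high sum at E13.5. Kera had 0, 3.81 and 26.7 CPM in Tnmd-high spots over the 3 stages, against 0.0964, 1.23 and 4.36 CPM in the remaining spots. At E13.5 this is 58 UMIs in Tnmd-high spots, against 88 UMIs in the far more numerous remaining spots. The spots of several classes, left out of this comparison, held 30 Kera UMIs at E13.5, or 36.1 CPM.

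Set against Col2a1-high spots, the Tnmd-high spots were higher in Kera (edgeR adjusted p = 0.0137) and lower in Chad, Prelp and Fmod. That is 1 member higher and 3 lower of 10, where 1.75% of all genes were higher and 1.43% lower. Kera met the count filter only with the help of its Tnmd-high sum at E13.5, which in part set its place in this count. For Kera the Tnmd-high spots held 0, 6 and 58 UMIs over the 3 stages, against 0 UMIs in the Col2a1-high spots of every section. With 3 UMIs put in place of 0 in the Col2a1-high spots, the Kera ratio of Tnmd-high to Col2a1-high spots was 7.26 at E13.5. At E12.5 it was 2.48. These 2 values leave out counting error, and the exact intervals of the counts themselves begin lower, at 5.72 for E13.5 and 1.46 for E12.5. Kera was thus detected outside the cartilage-rich spots in every section in which it passed 3 UMIs. After thinning to 2000 UMIs at E13.5, Kera had a UMI in 6.06% of Tnmd-high spots, against 0 of 105 Col2a1-high spots (upper limit 3.45%, exact Clopper-Pearson) and 0.93% of the remaining spots.

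Chad had 2.54, 1.91 and 16.6 CPM in Tnmd-high spots at the 3 stages, against 16.8, 71.2 and 317 CPM in Col2a1-high spots, a fitted log2 difference of -4.65 ± 0.46 (SE, edgeR adjusted p = 0.000497). Prelp had 5.09, 3.81 and 20.8 CPM in Tnmd-high spots, against 8.72, 35.3 and 287 CPM in Col2a1-high spots (log2 difference -3.21 ± 0.42, edgeR adjusted p = 0.00345). Fmod, which is also known from tendon, had 12.7, 39.4 and 196 CPM in Tnmd-high spots, against 29.5, 136 and 2132 CPM in Col2a1-high spots (log2 difference -2.34 ± 0.58, edgeR adjusted p = 0.0485). For all 3 genes the Tnmd-high value lay below the Col2a1-high value in every section. Epyc, at -3.14 ± 0.81, missed the threshold (edgeR adjusted p = 0.0561), and it passed without E11.5 (0.0336).

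These calls depend on single sections. Without E12.5 none of the 4 passed, with edgeR adjusted p-values of 0.321 for Kera, 0.0732 for Chad, 0.271 for Prelp and 0.483 for Fmod. Without E13.5 Prelp was at 0.0589 and Fmod at 0.0565, and without E11.5 Fmod was at 0.0658. Kera was not tested without E13.5, where it fell below the count filter, and that section holds 58 of the 64 Kera UMIs of the Tnmd-high spots. Skeletal muscle markers moved with this comparison too: 5 of 6 were higher in edgeR's test, and they summed to 142, 1837 and 4965 CPM in Tnmd-high spots, with Myog at 0 at E11.5, against 93.5, 86.0 and 975.2 CPM in Col2a1-high spots. Their part in the Kera result was not tested.

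Tnmd-high and Col1a1-high spots were not separated by any member in edgeR's test, where 0.00771% of genes were called in each direction, namely Myom2 higher and Ibsp lower, both named after their values were seen. Kera had 3.81 CPM at E12.5 and 26.7 CPM at E13.5 in Tnmd-high spots, against 1.28 and 11.6 CPM in Col1a1-high spots (log2 difference 1.30, edgeR adjusted p = 0.730). Dcn had 397 CPM in Tnmd-high spots at E13.5, against 1367 CPM in Col1a1-high spots, and was lower in Tnmd-high spots in 3 of 3 sections. Aspn and Ogn were close between these classes at E13.5, with 191 and 453 CPM in Tnmd-high spots, against 196 and 445 CPM in Col1a1-high spots.

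To see which members shared spots, the Pearson correlation of log2(UMIs per 10000 + 1) was taken over the spots of a section. The spots share a library and differ in depth, so these values are descriptions and carry no p. At E13.5, over 1360 spots, Bgn and Fmod had the highest value (r = 0.724, and 0.436 after thinning every spot to 2000 UMIs). Fmod and Chad followed at 0.608 (0.377 after thinning), Bgn and Chad at 0.566 (0.297), and Fmod and Prelp at 0.548 (0.29). Dcn with Lum stood at 0.44 (0.258 after thinning) and Ogn with Aspn at 0.422 (0.123), while Dcn and Fmod ran opposite (-0.306, and -0.169 after thinning). At E12.5, over 1014 spots, Epyc and Chad reached 0.57, but 0.077 after thinning. The sparse counts of E11.5 allow little, with Bgn and Lum at 0.521 (0.209 after thinning).

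**Figure D4:**
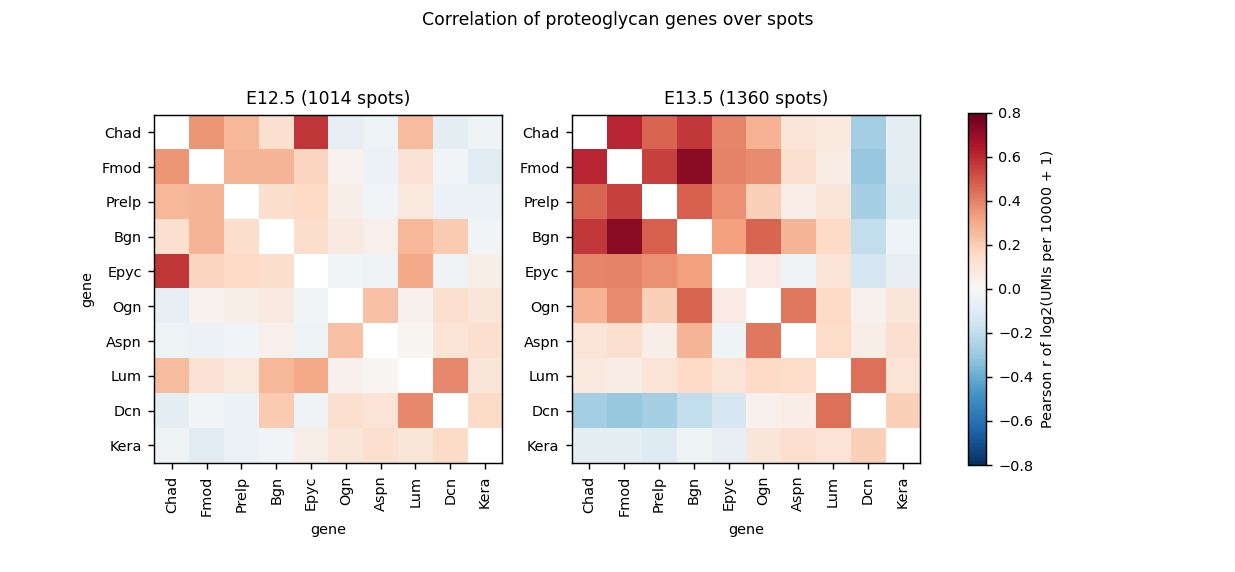
Pearson correlation over spots between pairs of the 10 genes, on log2(UMIs per 10000 + 1), at E12.5 (1014 spots) and E13.5 (1360 spots). At E13.5 the highest pair is Bgn with Fmod (0.724), and Dcn with Fmod is negative (-0.306).

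Over all genes with at least 200 UMIs, those most like each member were ranked by the mean of that correlation over sections. Dcn was most like Col3a1 (0.414, and 0.222 after thinning), followed by Lum and Col1a2. Lum was most like Col1a2 (0.499, and 0.223 after thinning), Col3a1 and Serpinh1, and Ogn most like Col1a1 and Col1a2 (both 0.363, and 0.111 and 0.117 after thinning). Fmod was most like Col2a1 (0.458, and 0.305 after thinning, with 0.776 at E13.5), Col9a1 and Col11a1. Bgn was most like Sparc (0.538, and 0.191 after thinning), Serpinh1, a collagen chaperone, and Rcn3. Epyc was most like the cartilage genes Col11a2 (0.579, and 0.296 after thinning), Acan (0.573, and 0.368) and Cnmd (0.535, and 0.312), an order that changed on thinning, over the 2 sections in which it had enough UMIs. Aspn, Prelp, Kera and Chad fell below 200 UMIs in 2 sections, and none is named for them.

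Other genes of the same matrix were counted from lists. Of 8 further genes of the family, 4 were tested and 1, Chadl, a close relative of Chad, was higher in Col2a1-high than in remaining spots (log2 difference 2.71, edgeR adjusted p = 0.00254). The counts in this comparison stand beside 2.97% of all genes higher and 3.52% lower. Of 24 genes that make chondroitin and dermatan sulfate chains, 23 were tested, 5 were higher and 0 lower, with a list median of 0.61 against -0.005 for all genes. The 5 were Papss2 (3.21), Papss1 (0.61) and Slc26a2 (1.59), which supply activated sulfate, and Chst11 (1.80) and Chpf2 (1.04), which sulfate and extend the chain. Of 8 tested genes that make keratan sulfate chains, 0 passed. Of 16 tested collagen genes, 8 were higher in Col2a1-high spots, among them Col11a2 (3.99), Col9a3 (3.84), Col9a2 (3.49) and Col11a1 (2.95). In Tnmd-high and in Col1a1-high spots against the remaining spots 0 genes of each of these lists passed, and between Tnmd-high and Col2a1-high spots Chadl (-2.63), Papss2 (-3.19) and Chst11 (-2.16) were among those lower, where 1.43% of all genes were lower.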

How the data were processed

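The deposited files hold, for each section, raw counts of UMIs for every gene in every spot, from Space Ranger 1.2.0 per the file headers, with STAR and mm10 named in the submitters' processing notes. The annotation release is not given in the sources used here. Stages were taken from the titles. Sections were 10 µm thick, with spots 100 µm apart per the labels' protocols. The members and lists were chosen with earlier results of these data known.

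Counts of spots with at least 1000 UMIs were summed per section and class. The 15 sums went into edgeR 4.0.16 (filterByExpr, TMM, glmQLFit, glmQLFTest, R 4.3.3, limma 3.58.1), with the section as block since all classes of 1 section share its tissue, and all 5 classes share 1 estimate of the spread. Benjamini-Hochberg adjustment covered 12978 genes. The genes that choose the classes are no finding. Stage ratios carry exact 95% intervals and no p. The sums reached from the 12 Tnmd-high spots at E11.5 to 1084 spots, and intervals cover counting error only. Named genes were the members, up to 3 genes most like each and up to 5 passing genes of a list. The limit first set for a list was lower, and the 5 chondroitin and dermatan sulfate genes exceed it. Alternatives were DESeq2 1.42.0, RLE scaling, no filter, a top 5%, a minimum of 5000 UMIs, spots of several classes kept, no block and sections left out. Another 2 were chosen after seeing the data, namely leaving out the 3% of spots highest in T and the E11.5 Tnmd-high sum. The fit was also run on simulated counts in which class differences were equal in every section, unlike in these data. That run is therefore no check of the calls above. Computing used Python 3.11.15, numpy 2.4.6, scipy 1.17.1, pandas 2.3.3 and matplotlib 3.10.9. Spot positions and images were not used here, and spots were not screened for doublets, since no caller applies to them.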

Additional observations from a re-analysis of the deposited data

Results flagged for a closer look

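In 6 differences between classes of spots, at least 1 section lay above and at least 1 below a ratio of 1, each with its exact 95% interval clear of 1. Other members also had sections on both sides of 1, but with an interval that held 1 on a side. With 1 section a stage, the difference between sections was not tested, and the fold values are from single sections. In Col2a1-high against remaining spots, Dcn was at 1.89-fold at E11.5, 0.391-fold at E12.5 and 0.171-fold at E13.5, and Ogn at 3.02-fold, 0.437-fold and 2.46-fold. In Tnmd-high against Col2a1-high spots, Dcn was at 0.176-fold at E11.5, 2.46-fold at E12.5 and 5.57-fold at E13.5. Bgn ran the other way, at 1.48-fold, 0.678-fold and 0.188-fold. Lum was at 1.25-fold, 0.597-fold and 0.7825-fold, and Ogn at 0.171-fold, 2.13-fold and 0.629-fold. At E11.5 the Tnmd-high value rests on 12 spots, in which Dcn had 4 UMIs and Ogn 2.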

How the results depend on the processing

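Without a replicate block for the section, edgeR called 0 genes higher and 0 lower in all 5 comparisons of classes. The section block therefore carries every call, and without it the adjusted p was 0.446 for Chad, 0.493 for Prelp, 0.368 for Epyc and 0.534 for Fmod in Col2a1-high against remaining spots.

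The main counts of genes higher and lower were 385 and 457 (Col2a1-high against remaining), 1 and 1 (Tnmd-high against remaining), 0 and 0 (Col1a1-high against remaining), 227 and 186 (Tnmd-high against Col2a1-high) and 1 and 1 (Tnmd-high against Col1a1-high). DESeq2 gave 591 and 764, then 30 and 15 for Col1a1-high, 516 and 324 for Tnmd-high against Col2a1-high, and 6 and 9 for Tnmd-high against Col1a1-high. A top 5% gave 731 lower in Col2a1-high spots, 11 and 4 for Col1a1-high, 354 and 290 for Tnmd-high against Col2a1-high, and 2 and 3 for Tnmd-high against Col1a1-high. No filter gave 3 lower in Tnmd-high spots, 19 and 29 for Col1a1-high, and 10 and 11 for Tnmd-high against Col1a1-high. Keeping spots of several classes gave 0 higher in Tnmd-high and 1 higher in Col1a1-high spots. Tnmd-high against Col1a1-high had 0 and 0 with those spots kept, with RLE, with at least 5000 UMIs and without the E11.5 Tnmd-high sum, which also left 0 and 0 for Tnmd-high against remaining. Leaving out 1 section gave 15 to 502 higher and 3 to 847 lower for Col2a1-high against remaining, 0 higher and 0 to 2 lower for Tnmd-high, 0 to 133 higher and 0 to 112 lower for Col1a1-high, 2 to 332 higher and 7 to 199 lower for Tnmd-high against Col2a1-high, and 0 higher and 0 to 2 lower for Tnmd-high against Col1a1-high. The cause of these moves was not tested.

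Of the members' log2 differences under alternatives, 561 kept their side of the threshold, 7 gained it and 22 lost it. Fmod in Tnmd-high against Col2a1-high spots also missed it with RLE (adjusted p = 0.0518), 5000 UMIs (0.0641), no T-rich spots (0.0729) and no E11.5 Tnmd-high sum (0.0841). Epyc passed there with DESeq2 (0.0245), no filter (0.0176), a top 5% (0.0298) and without E11.5 (0.0336). Without E13.5, Lum passed in Col2a1-high spots (0.0330), and Bgn (0.0284) and Lum (0.0353) in Col1a1-high spots. With TMM, 619 genes in place of 964 were at least 2-fold higher at E12.5 than at E11.5, and the Bgn ratio turned to 0.964, against 1.11 in CPM. Low depth limits Kera and, before E13.5, Aspn, and 15 of 18 correlations moved on thinning.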
